A study of Mus musculus with 12 samples.

Results

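The subunits of the mitochondrial respiratory chain and ATP synthase were followed in mouse embryonic stem cells that lacked DHX36, FANCJ or both, a pair of helicases that unwind G-quadruplexes. The members were all genes named mt-Nd, mt-Co, mt-Cytb or mt-Atp, and the nuclear genes named Nduf (letters a, b, c, s and v), Uqcr, Cox4 to Cox8 or Atp5. The single name ending in -ps was left out. This gave 94 of the 32285 genes in the count table, 13 of them encoded in mitochondrial DNA and 81 in the nucleus. No other gene whose name starts with mt- was in the table, so mitochondrial rRNAs and tRNAs were not analysed here.

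The study had 4 genotypes with 3 libraries each: WT, DHX36 KO, FANCJ KO and DHX36/FANCJ KO, the last called the double KO below. All 12 libraries came from untreated IB10 cells, a 129/Ola stem cell line kept on gelatin in rat liver cell-conditioned medium with serum and leukaemia inhibitory factor. Bulk RNA was converted by a method like CEL-Seq2, which counts tags at the 3′ ends of polyadenylated transcripts. Nothing in the labels tells if a KO line was 1 clone, or if the 3 libraries of a genotype were separate cultures. All p-values therefore rest on library-to-library spread that could be technical. Total counts were 4284785 to 5792862 in wild type, 6223087 to 10919405 in DHX36 KO, 4936662 to 7900066 in FANCJ KO and 10915924 to 14721931 in the double KO.

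The respiratory chain passes electrons from NADH and succinate to oxygen through complexes I to IV, and pumps protons across the inner mitochondrial membrane. ATP synthase, also called complex V, uses the proton gradient to make ATP. Complexes I, III, IV and V are built from both genomes. Some of their membrane-bound subunits, among them part of the proton channel of complex V, are encoded in mitochondrial DNA. The other subunits are imported from the cytosol. Mitochondrial mRNAs are cut from long transcripts of each strand, so their levels depend on transcription of the whole circle and on the stability of each mRNA. DHX36 unwinds G-quadruplexes, stacked structures of guanine-rich DNA or RNA, and FANCJ (gene Brip1) is a helicase that resolves them in DNA.

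Some features of the mitochondrial genes bear on how they can be counted, and the stretches that show them are printed first, 5′ to 3′ on the coding strand (GRCm38, GENCODE M21). mt-Atp8 (7766 to 7969) and mt-Atp6 (7927 to 8607) are read from 1 mRNA and share 43 bases, given in capitals within chrM:7912-7984. mt-Nd4l (9877 to 10173) and mt-Nd4 (10167 to 11544) share 7 bases, in capitals within chrM:10152-10188. mt-Nd6 (13552 to 14070) is the only member on the opposite strand, and is 28.1% G, against 5.88% to 16.1% in the other 12. Its 120-base stretch richest in runs of at least 3 G, chrM:13787-13906 on the minus strand, is shown with those runs in capitals.
mt-Atp8/mt-Atp6: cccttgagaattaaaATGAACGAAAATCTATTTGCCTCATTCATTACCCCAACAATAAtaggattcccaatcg
mt-Nd4l/mt-Nd4: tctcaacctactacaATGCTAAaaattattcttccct
mt-Nd6: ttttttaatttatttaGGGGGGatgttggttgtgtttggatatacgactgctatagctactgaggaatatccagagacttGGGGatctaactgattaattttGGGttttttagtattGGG

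Counts followed this arrangement. The upstream gene of each joined pair had few tags: mt-Atp8 had 1.22% to 1.68% of the count of mt-Atp6 over the 12 libraries, and mt-Nd4l 4.95% to 10.0% of that of mt-Nd4. mt-Nd6 had 29 to 351 counts per library, 0.0972% to 0.478% of the count of mt-Nd5, with whose end it overlaps on the other strand. Tags were counted at 3′ ends and not divided by gene length. The handling of strand is not given in the sources used here. Tags of mt-Nd6 and mt-Nd5 may not be fully told apart. mt-Nd6 held 12 runs of at least 3 G, with a longest run of 6, and 0 matches to the G-quadruplex motif of 4 such runs with loops of 1 to 7 bases. The other 12 mitochondrial genes held 0 to 6 such runs and also 0 matches.

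Of the targeted genes, Dhx36 stood at 54.1 ± 3.78 CPM in wild type and 10.4 ± 1.45 CPM in DHX36 KO (SD, n = 3 each), and at 13.9 ± 1.53 CPM in the double KO, where CPM are counts scaled by trimmed means to a common library total. Brip1 had 30 to 38 counts in wild-type libraries, 1 to 3 in FANCJ KO and 2 to 11 in the double KO. The position of the deletions is not given in the sources used here, and residual tags do not measure residual protein. All 8 pluripotency markers listed were detected, summing to 3640 to 3724 CPM in wild type, 4006 to 4352 in DHX36 KO, 3324 to 3493 in FANCJ KO and 5041 to 5049 in the double KO. Fibroblast markers summed to 87.9 to 93.1 CPM in wild type, 73.6 to 84.0 and 81.1 to 88.2 in DHX36 KO and FANCJ KO, and 30.9 to 35.5 in the double KO. Within that list Col1a1 averaged 70.5 CPM in wild type and 11.7 in the double KO, while Thy1 went the other way, from 4.12 to 12.2, and to 15.01 in DHX36 KO. Primitive endoderm markers reached 176 to 188 CPM in FANCJ KO against 71.6 to 107 elsewhere, a sum made up mostly of Col4a1 and Dab2. Sox17 averaged 2.58 CPM in wild type and 10.8, 13.1 and 9.74 in DHX36 KO, FANCJ KO and the double KO. Gata6 averaged 1.85, 4.07, 5.03 and 6.70 in the same order, while the other markers of this list were highest in FANCJ KO. Germ cell markers summed to 69.2 to 96.2 CPM in all libraries, and muscle markers to at most 15.03 CPM. None of these markers was at 0 in all libraries, and their part in the results below was not tested.

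The mitochondrially encoded genes took a larger share of counts in all 9 knockout libraries than in the 3 wild-type ones. Their sum was 10.1%, 10.6% and 10.0% of counts in wild type, 11.01%, 11.2% and 12.3% in DHX36 KO, 11.2%, 11.3% and 11.5% in FANCJ KO and 13.2%, 13.1% and 11.9% in the double KO. The means were 10.2% ± 0.305, 11.5% ± 0.672, 11.3% ± 0.154 and 12.7% ± 0.697 (SD, n = 3). The 81 nuclear genes together took 1.42% ± 0.0340 in wild type, 1.5005% ± 0.0434, 1.43% ± 0.0169 and 1.49% ± 0.0449 in the same order. Their share was also above wild type in every DHX36 KO and double KO library, at 1.46% to 1.54% in both against 1.38% to 1.44%. In CPM, the mitochondrial sum of DHX36 KO (106713 to 123529) overlapped wild type (100270 to 108275), while those of FANCJ KO and the double KO did not. Counting error was small beside these spreads, since the widest Wilson 95% interval of a mitochondrial share spanned 0.0568 percentage points. Total counts were 4284785 to 5792862 in wild type and 10915924 to 14721931 in the double KO, so depth and genotype cannot be told apart there. Within these 2 genotypes the share rose with total counts. In DHX36 KO the deepest library had the highest share, and in FANCJ KO the shallowest did. The part of depth was not tested. In bulk libraries, fewer cells with a transcript and less of it per cell cannot be told apart.

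**Figure D1:**
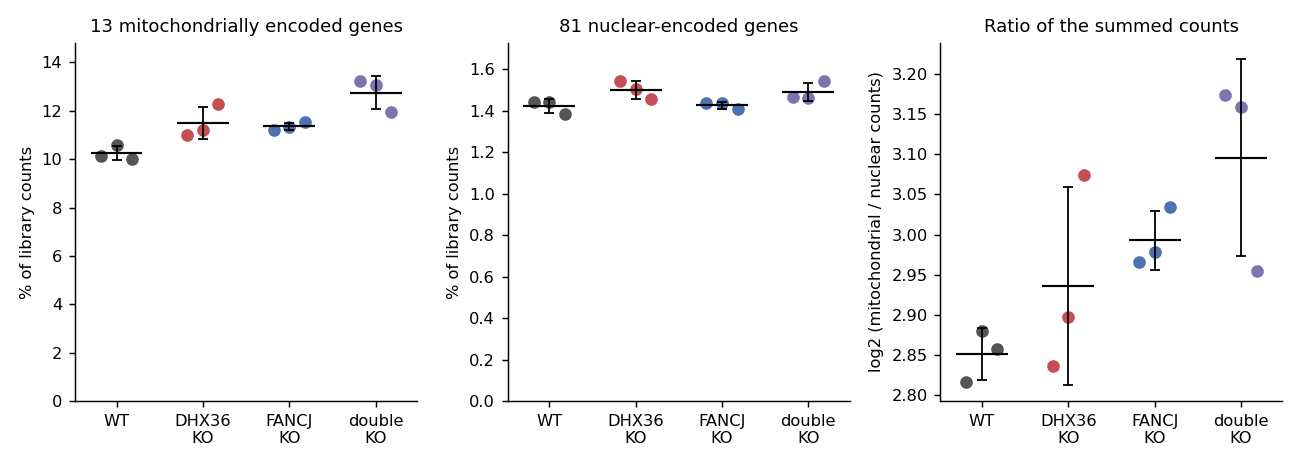
Share of library counts taken by the 13 mitochondrially encoded genes and by the 81 nuclear-encoded genes (% of counts), and the log2 ratio of the 2 sums, for 3 libraries per genotype (points) with their mean and SD (bars). The mitochondrial share of every knockout library is above the 10.6% of the highest wild-type library, and the ratio of DHX36 KO overlaps wild type.

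Set against the nuclear genes in the same library, the rise was seen in FANCJ KO and the double KO and was less clear in DHX36 KO. The log2 ratio of mitochondrial to nuclear sums was 2.82, 2.88 and 2.86 in wild type, 2.84, 2.90 and 3.07 in DHX36 KO, 2.97, 2.98 and 3.03 in FANCJ KO and 3.17, 3.16 and 2.95 in the double KO. The differences from wild type were 0.09, 0.14 and 0.25 on the log2 scale. DHX36 KO overlapped wild type, with 1 library well above it, and the other 2 genotypes did not. Leaving out 1 library at a time gave 0.02 to 0.14 for DHX36 KO, with the low value without its replicate 3. For FANCJ KO and the double KO it gave 0.12 to 0.16 and 0.21 to 0.32.

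By complex, the ratio differed most from wild type in complex III. There it was 3.90 ± 0.12 in wild type, 4.18 ± 0.13 in DHX36 KO, 4.197 ± 0.083 in FANCJ KO and 4.40 ± 0.11 in the double KO (SD, n = 3), with no overlap between wild type and any knockout. For complex I it was 3.69 ± 0.070, 3.92 ± 0.041, 3.81 ± 0.063 and 3.9999 ± 0.097, and only FANCJ KO overlapped wild type. For complexes IV and V all knockouts overlapped wild type, with means of 2.84 ± 0.18, 2.78 ± 0.28, 3.03 ± 0.10 and 3.14 ± 0.17, and of 1.60 ± 0.20, 1.64 ± 0.13, 1.70 ± 0.11 and 1.68 ± 0.14.

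Gene by gene, all 13 mitochondrial genes had a positive fold change in the double KO, and 4 passed the test. Genes were tested over the whole table of 12765 genes by edgeR's quasi-likelihood test, with Benjamini-Hochberg adjustment and a threshold of 0.05. Of the 13 mitochondrial genes, 2 rose and 0 fell in DHX36 KO, 0 changed in FANCJ KO, with 2 at an unadjusted p under 0.05, and 4 rose and 0 fell in the double KO. The share of all tested genes that rose was 12.8% in DHX36 KO, 1.45% in FANCJ KO and 16.6% in the double KO, so the 15.4% of mitochondrial genes that rose in DHX36 KO is near the background and the 30.8% in the double KO is above it, over few genes. The median log2 fold change of the 13 was 0.14, 0.12 and 0.26 in the 3 comparisons, against 0.00, -0.00 and 0.01 over all tested genes. The other scalings, filters and models run on all libraries gave medians of 0.13 to 0.15, 0.12 to 0.14 and 0.25 to 0.27. The counts of calls were less stable, since without a filter on low counts 5, 2 and 8 of the 13 were called. All 3 knockouts were set against the same 3 wild-type libraries.

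mt-Cytb, the cytochrome b of complex III and its only mitochondrial subunit, stood at 13214, 13381 and 14158 CPM in wild type, 15485.5, 14974 and 15999 in DHX36 KO, 15296, 16639 and 14898 in FANCJ KO and 19728, 17707 and 17274 in the double KO. Every knockout library was above every wild-type library, and the double KO was the highest. The log2 fold change in the double KO was 0.42 (SE 0.073, adjusted p = 0.000103 in edgeR). In DHX36 KO and FANCJ KO the values were 0.19 and 0.20, with adjusted p of 0.062 and 0.18, and neither passed.

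Among the 7 mitochondrial subunits of complex I, which form its proton-pumping membrane arm, mt-Nd2, mt-Nd3 and mt-Nd4 rose in the double KO. mt-Nd2 was at 5779.7, 6716 and 5471 CPM in wild type and 9129, 10156 and 9229 CPM in the double KO, a log2 rise of 0.67 (SE 0.13, adjusted p = 0.00029). Both groups were clearly apart, while FANCJ KO spread from 5483 to 8814 CPM. mt-Nd4 was at 10572, 11013 and 11889 CPM in wild type, 14929, 14179 and 13292 in DHX36 KO and 13969, 13310.3 and 12715 in the double KO. It rose in both genotypes without DHX36, by 0.34 (SE 0.072, adjusted p = 0.0014) and 0.26 (SE 0.072, adjusted p = 0.0084). In FANCJ KO mt-Nd4 lay within the wild-type range, at 11200 to 11556 CPM. mt-Nd3 was at 2841 to 3117.5 CPM in wild type and 3469 to 4416 in the double KO, a rise of 0.39 (SE 0.11, adjusted p = 0.0088), which was lost without double KO replicate 1 (adjusted p = 0.061).

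The other complex I genes showed no call and, in part, a wide spread within genotypes. mt-Nd1 was at 13429 to 15102 CPM in wild type and 14293 to 16059 in the double KO. mt-Nd5 ranged from 2476 to 6220 CPM within wild type, from 3989 to 5741 in DHX36 KO, from 2925 to 6025 in FANCJ KO and from 4964 to 6283 in the double KO. mt-Nd4l ranged from 646 to 1331 CPM over all libraries. mt-Nd6, with the G-rich stretch printed above, was at 7.7, 10.4 and 8.7 CPM in wild type and 23.7, 14.3 and 12.8 CPM in the double KO. Those groups did not overlap, but the log2 difference of 0.92 (SE 0.38) did not pass (adjusted p = 0.069). In the single knockouts it ranged from 4.6 to 16.6 and from 3.8 to 13.1 CPM, on both sides of wild type.

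Of the 3 mitochondrial subunits of complex IV, which form its catalytic core, only mt-Co3 passed a test. It was at 2776, 3250 and 3028 CPM in wild type and 3728.5, 3612 and 3677 CPM in DHX36 KO, a log2 rise of 0.28 (SE 0.078, adjusted p = 0.011), and was lost without wild-type replicate 1 (adjusted p = 0.077). mt-Co1, the subunit that binds oxygen, split the libraries within genotypes. It was at 10046, 11901 and 3394 CPM in wild type, 2766, 3513 and 11254 in DHX36 KO, 12300, 12236 and 12376.5 in FANCJ KO and 14062, 13608 and 8647 in the double KO. Thus 3 libraries, wild-type replicate 3 and DHX36 KO replicates 1 and 2, stood far below the other 9, and no genotype difference could be called. mt-Co2 was at 19745 to 26143 CPM over all libraries without a call.

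mt-Co1 was the most variable member within genotypes, with a pooled SD of 0.76 on the log2(CPM + 1) scale, followed by mt-Nd6 at 0.65, mt-Nd5 at 0.46 and mt-Nd4l at 0.27. The median over the 13 mitochondrial genes was 0.14 and over the 75 nuclear genes that passed the filter 0.11. Without mt-Co1, the mitochondrial share was 9.15%, 9.43% and 9.67% in wild type, 10.7% to 11.1% in DHX36 KO, 10.0% to 10.3% in FANCJ KO and 11.1% to 11.8% in the double KO, with no overlap of any knockout with wild type. The ATP synthase genes mt-Atp6 and mt-Atp8, both parts of the membrane-bound stator, passed in no comparison. mt-Atp6 was at 15897.5 to 19972 CPM in wild type and 19145 to 22032 in the double KO.

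**Figure D2:**
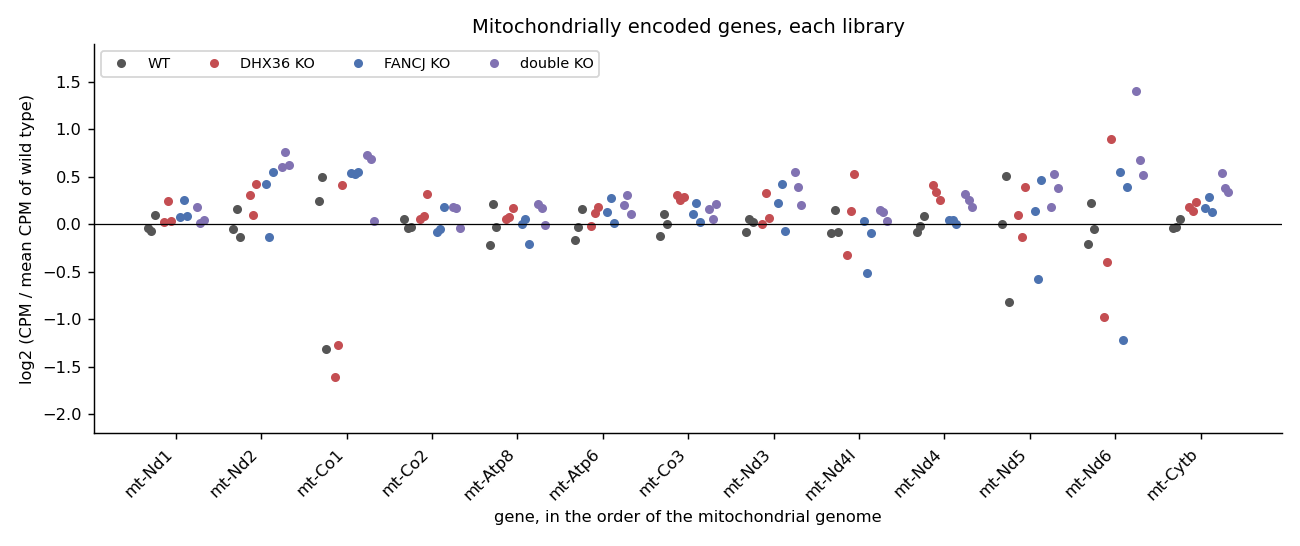
Level of each mitochondrially encoded gene in each library, as log2 of CPM over the mean of wild type, in genome order, with 3 points per genotype. mt-Cytb lies above wild type in all 9 knockout libraries, and mt-Co1 falls by more than 1 on this log2 scale in 3 libraries of 2 genotypes.

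Counting by overlap alone, 3 of the 13 mitochondrial genes were higher in all DHX36 KO libraries than in all wild-type ones, against 19.6% of all tested genes. In FANCJ KO there were 2 of 13, against 10.0%, and in the double KO 5 of 13, against 23.1%. mt-Cytb was among them in each comparison. The other 2 in DHX36 KO were mt-Co3 and mt-Nd4, the other in FANCJ KO was mt-Co1, and the other 4 in the double KO were mt-Nd2, mt-Nd3, mt-Nd4 and mt-Nd6. None of the 13 was lower without overlap in any of these comparisons.

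The nuclear subunits did not shift together. Of the 81, 75 passed the filter on low counts. In DHX36 KO 6 rose and 4 fell, in FANCJ KO 1 rose and 0 fell, and in the double KO 9 rose and 12 fell. Over all tested genes 11.6% fell in DHX36 KO, 0.619% in FANCJ KO and 17.3% in the double KO. The nuclear members were therefore called about as often as other genes or less, at 8.0% up and 5.3% down, 1.3% up, and 12% up and 16.0% down. Their median log2 fold changes were -0.02, -0.01 and -0.04. In the double KO 71 of the 75 changed by less than 0.5 on the log2 scale, and in FANCJ KO all 75 did.

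**Figure D3:**
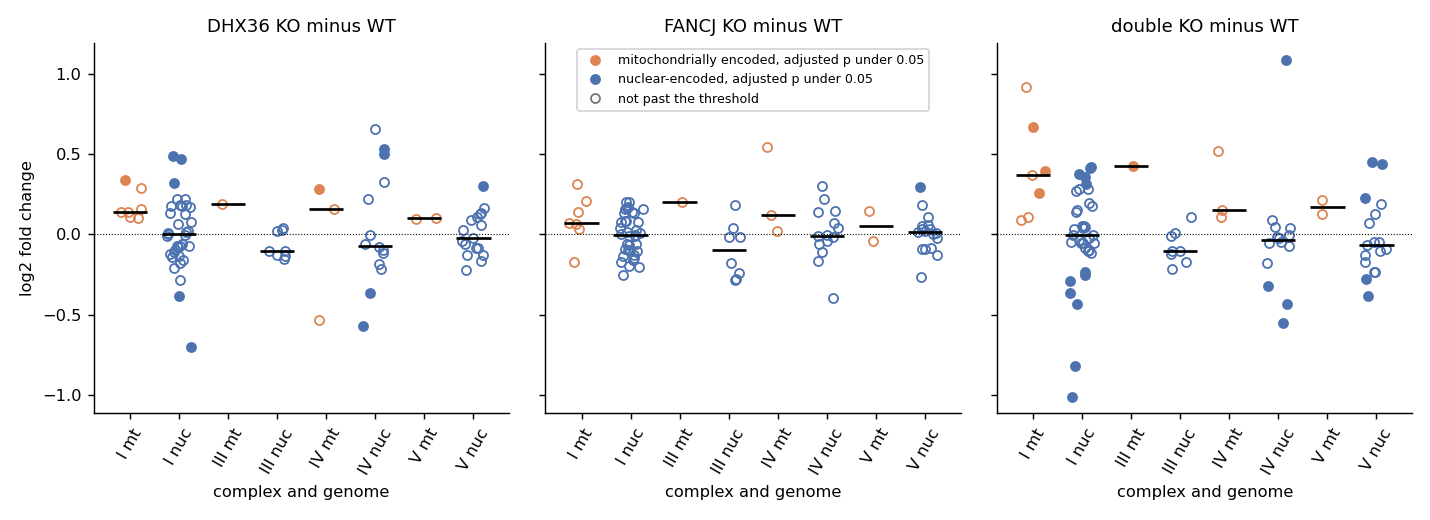
Log2 fold change against wild type of each member that passed the filter, by complex and by genome (mt, mitochondrial; nuc, nuclear), with the median of each set as a bar. The mitochondrial medians of complexes I, III, IV and V lie above the nuclear ones in all 3 comparisons, while nuclear genes of complexes I, IV and V change in both directions.

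In complex I, 36 nuclear genes were tested, and 3 rose and 2 fell in DHX36 KO and 5 rose and 7 fell in the double KO. The member with the largest fall was Ndufa7, an accessory subunit of the peripheral arm (chromosome 17, 33824572 to 33838317, plus strand). It was at 128, 118 and 112.5 CPM in wild type, 113, 117 and 115 in DHX36 KO, 105, 109 and 131 in FANCJ KO and 56.1, 58.3 and 63.6 in the double KO. The double KO stood far below all other libraries, and the single knockouts lay around wild type. The log2 fold change was -1.01 (SE 0.094, adjusted p = 3.69e-08), and -0.06 in each single knockout.

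Ndufa1 and Ndufa6 changed in both genotypes without DHX36. Ndufa1, an accessory subunit encoded on the X chromosome, was at 30.1, 27.9 and 29.2 CPM in wild type, 40.0, 42.9 and 38.1 in DHX36 KO and 36.5, 38.9 and 32.9 in the double KO. It rose by 0.47 (SE 0.12, adjusted p = 0.0048) and 0.32 (SE 0.11, adjusted p = 0.036), the second lost in 6 of 14 alternatives with adjusted p of up to 0.13. Ndufa6, an accessory subunit, was at 114, 108 and 112 CPM in wild type, 91.1, 74.9 and 89.4 in DHX36 KO and 90.3, 93.5 and 100.1 in the double KO. The fall was 0.38 on the log2 scale in DHX36 KO (adjusted p = 0.0035), while the double KO call, at -0.23, was near the threshold (adjusted p = 0.046) and was lost in 8 of 14 alternatives.

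Ndufc1, a small membrane subunit, was at 93.9, 126 and 97.3 CPM in wild type, 139, 127 and 132 in DHX36 KO and 141, 140 and 143 in the double KO. Wild-type replicate 2 nearly reached the knockouts. The rises were 0.32 (adjusted p = 0.022) and 0.41 (adjusted p = 0.0026), of which the first was lost in 3 of 14 alternatives. Ndufs4, a subunit needed for late assembly of the complex, was at 46.6, 45.9 and 47.5 CPM in wild type and 58.5, 71.5 and 57.4 in the double KO (log2 rise 0.42, adjusted p = 0.0031). Ndufs5 rose by 0.37 there, from 29.2 to 30.4 CPM in wild type to 36.6 to 42.6, and Ndufb4 fell by 0.43, from 66.5 to 95.3 CPM to 43.2 to 65.4. The calls of Ndufs5 and Ndufb4 were lost in 6 and 3 of 14 alternatives, with adjusted p of up to 0.092 and 0.26. Ndufa13 was below the level set for naming and was chosen after its values were seen. This subunit, also known as GRIM-19, was at 17.0, 23.5 and 17.1 CPM in wild type, 10.3 to 13.1 in DHX36 KO and 9.2 to 12.6 in the double KO, log2 falls of 0.70 (adjusted p = 0.0036) and 0.82 (adjusted p = 0.00044).

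In complex III only the mitochondrial subunit was called against wild type. Of the 8 nuclear genes tested, among them the core proteins Uqcrc1 and Uqcrc2 and the iron-sulfur protein Uqcrfs1, 0 were called in any comparison with wild type, and 2 in FANCJ KO and 1 in the double KO had an unadjusted p under 0.05. Their log2 fold changes ran from -0.15 to 0.04 in DHX36 KO, from -0.29 to 0.18 in FANCJ KO and from -0.21 to 0.11 in the double KO. Their summed level was 908 ± 47.8 CPM in wild type and 865 ± 32.6 CPM in the double KO, while mt-Cytb went from 13584.5 ± 504 to 18236 ± 1310 CPM (SD, n = 3).

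In complex IV, 14 nuclear genes were tested. Of these 2 rose and 2 fell in DHX36 KO, 0 changed in FANCJ KO, with 2 at an unadjusted p under 0.05, and 1 rose and 3 fell in the double KO. Cox4i1, the common form of subunit 4 (chromosome 8, 120668222 to 120674207, plus strand), was at 371, 429 and 403 CPM in wild type, 284, 243 and 283 in DHX36 KO, 358, 372 and 341 in FANCJ KO and 267, 313 and 312 in the double KO. Both genotypes without DHX36 were below all wild-type libraries. It fell by 0.57 on the log2 scale (SE 0.089, adjusted p = 6.42e-05) and by 0.43 (SE 0.089, adjusted p = 0.00066). Its partner Cox4i2, a form known from lung and from low oxygen, had 0 to 12 counts per library and did not pass the filter.

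Cox6b1, which lies where the monomers of a complex IV dimer meet, was at 194, 193 and 147 CPM in wild type, 132, 132 and 151.5 in DHX36 KO, 180.2, 178 and 174 in FANCJ KO and 134, 122 and 109 in the double KO. It fell by 0.55 in the double KO (SE 0.10, adjusted p = 0.00026). In DHX36 KO 1 library overlapped wild type, and the fall of 0.36 (adjusted p = 0.013) was lost in 3 of 14 alternatives. Cox6b2, the form known from testis, was at 42.0 to 64.6 CPM in wild type and was not called against wild type. Cox6a1, the common form of subunit 6a, was at 224, 199 and 187 CPM in wild type, 277, 285 and 299.5 in DHX36 KO and 191, 204.5 and 208 in the double KO. It rose in DHX36 KO by 0.50 (SE 0.084, adjusted p = 0.00014). The muscle form Cox6a2 had 0 to 10 counts per library.

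Cox7a2l, which joins complexes III and IV in supercomplexes (chromosome 17, 83501918 to 83517330, minus strand), was at 120.3, 120.2 and 117 CPM in wild type, 142, 136 and 139 in DHX36 KO, 128, 128 and 139 in FANCJ KO and 85.1, 100.0 and 101 in the double KO. Both single knockouts were above and the double KO was below wild type. The log2 fold changes were 0.22 (adjusted p = 0.061), 0.14 (adjusted p = 0.47) and -0.32 (adjusted p = 0.0055). Of its relatives, Cox7a2, the common form, was at 67.1 to 99.6 CPM over all libraries and was not called against wild type, though the double KO was lower than FANCJ KO by 0.40 (adjusted p = 0.0030). Cox7a1, the heart and skeletal muscle form, was low at 2.2, 2.1 and 2.6 CPM in wild type and 5.1, 5.0 and 4.5 in the double KO, a log2 rise of 1.09 (SE 0.30, adjusted p = 0.0075). It is named as part of an isoform set and rests on few counts. Cox8a was at 593 to 696 CPM over all libraries without a call, and its muscle and testis relatives Cox8b and Cox8c had at most 1 and 8 counts in a library.

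Ndufa4, first described with complex I and now counted with complex IV (chromosome 6, 11900292 to 11907497, minus strand), was at 957, 1029.9 and 1093 CPM in wild type, 1324, 1599 and 1527 in DHX36 KO, 1058, 1142 and 1035 in FANCJ KO and 1150.3, 1042 and 974.5 in the double KO. DHX36 KO stood above all other libraries, a log2 rise of 0.53 (SE 0.087, adjusted p = 0.00011). With the median of the other chromosome 6 genes taken off each library, the rise was 0.06 (adjusted p = 0.68) and no longer called. Its low-oxygen relative Ndufa4l2 had 0 to 6 counts per library.

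In ATP synthase, 17 nuclear genes were tested, and 1 rose and 0 fell in DHX36 KO, 1 rose and 0 fell in FANCJ KO, and 3 rose and 2 fell in the double KO. The 3 genes Atp5g1, Atp5g2 and Atp5g3 encode the same mature c subunit, the turning ring of the enzyme. Atp5g3 was at 1584, 1359 and 1494 CPM in wild type, 1912, 1752.5 and 1809 in DHX36 KO, 1609.5, 1648 and 1786 in FANCJ KO and 2054, 1928 and 2024 in the double KO. All knockout libraries were above wild type, by 0.30 (adjusted p = 0.0063) without DHX36, 0.18 (adjusted p = 0.25) without FANCJ and 0.44 (adjusted p = 0.00015) without both. Atp5g1 rose by 0.23 in the double KO (adjusted p = 0.042, lost in 6 of 14 alternatives). Atp5g2 went the other way, from 383 to 414 CPM in wild type to 316 to 379 in the double KO, and did not pass (-0.23, adjusted p = 0.056).

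Atp5a1, the alpha subunit of the catalytic head, was at 626, 705 and 692 CPM in wild type and 865, 927 and 971 in the double KO, a log2 rise of 0.45 (SE 0.081, adjusted p = 0.00019). Atp5d, the delta subunit of the central stalk, was at 124, 129 and 128 CPM in wild type and 91.9, 96.6 and 103.9 in the double KO, a fall of 0.38 (SE 0.082, adjusted p = 0.00094). The head subunit Atp5b, for which no call was made, was at 562 to 742 CPM over all libraries. The only nuclear gene called in FANCJ KO was Atp5l, the membrane subunit g. It was at 309, 294 and 329.5 CPM in wild type and 379, 379.9 and 383.5 in FANCJ KO, a rise of 0.29 (SE 0.074, adjusted p = 0.040). The groups did not overlap, but the call was lost in 9 of 14 alternatives, with adjusted p of up to 0.15.

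**Figure D4:**
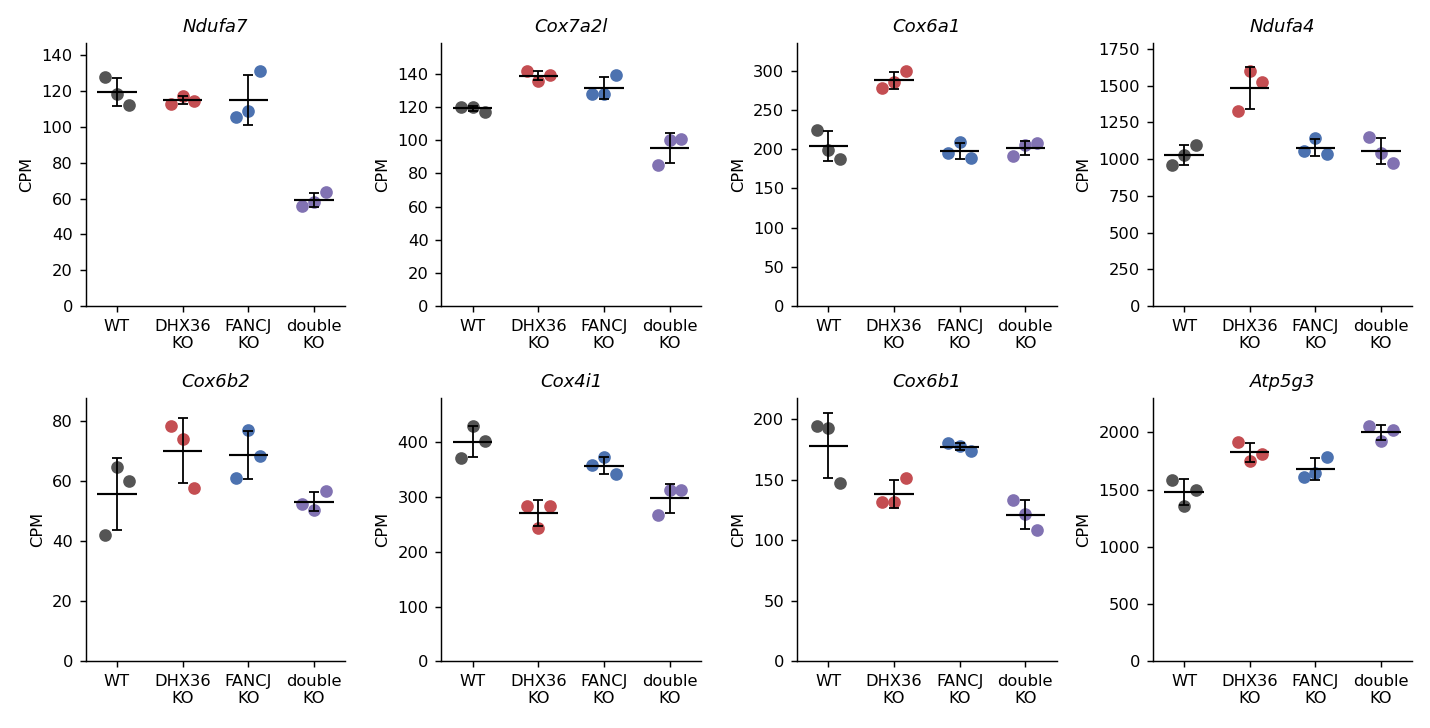
CPM of 8 nuclear members in each library (points), with the mean and SD of 3 libraries per genotype (bars). Ndufa7 and Cox7a2l are lowest in the double KO, Cox6a1 and Ndufa4 are highest in DHX36 KO, and Cox4i1 is low in both genotypes without DHX36.

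Against DHX36 KO, the double KO had 12 of 88 members called, 4 higher and 8 lower, or 13.6% against 19.7% of all tested genes. Against FANCJ KO it had 22 of 88 called, 11 higher and 11 lower, or 25% against 36.8%. The mitochondrial genes called there were all higher, 2 in the first comparison and 3 in the second. mt-Cytb and mt-Nd2 were called in both, with log2 differences of 0.24 and 0.38 from DHX36 KO and 0.22 and 0.35 from FANCJ KO. These comparisons share the double KO libraries.

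The interaction, which asks whether loss of both helicases differs from the sum of both single losses, was called for 5 of 88 members, 5.7% against 8.79% of all tested genes. All 5 were nuclear and negative, so the double KO was lower than the sum of the single effects. The values were -0.89 for Ndufa7 (SE 0.13, adjusted p = 0.000125), -0.69 for Cox7a2l (SE 0.12, adjusted p = 0.00066), -0.56 for Ndufa4 (SE 0.12, adjusted p = 0.0048), -0.47 for Cox6a1 (SE 0.12, adjusted p = 0.013) and -0.70 for Cox6b2 (SE 0.19, adjusted p = 0.024). The call of Ndufa4 was lost with the chromosome median taken off (adjusted p = 0.54). For Cox6b2 the single knockouts lay at 57.8 to 78.2 and 61.0 to 76.9 CPM and the double KO at 50.4 to 56.6, and the call was lost in 7 of 19 alternatives. None of the 13 mitochondrial genes was called, with 1 at an unadjusted p under 0.05, and their median interaction was 0.05.

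Chromosome 6 as a whole was higher in DHX36 KO, and 4 tested members lie on it. The median log2 fold change of the 582 other tested genes there was 0.48, against -0.08 to 0.04 on the other 19 chromosomes, and 85.9% of them were positive. By library, their median deviation from the mean over all libraries was 0.36, 0.37 and 0.37 in DHX36 KO and between -0.15 and -0.05 in the other 9 libraries, the double KO included. Ndufa4 and Ndufa9, both called, lay near that median, at 0.53 and 0.49. Ndufa9, an assembly-linked subunit of complex I (126821721 to 126849136, minus strand), was at 33.4, 33.9 and 35.3 CPM in wild type, 49.5, 50.3 and 44.1 in DHX36 KO and 31.6 to 34.8 in the double KO. With each library's chromosome median taken off, an alternative added after the data were examined, Ndufa4 changed by 0.06 (adjusted p = 0.68) and Ndufa9 by 0.01 (adjusted p = 0.95), and the interaction of Ndufa4 was -0.15 (adjusted p = 0.54). Ndufa5 and Ndufb2, not called without it, came to -0.26 (adjusted p = 0.14) and -0.61 (adjusted p = 0.0018). What raised chromosome 6 was not tested.

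**Figure D5:**
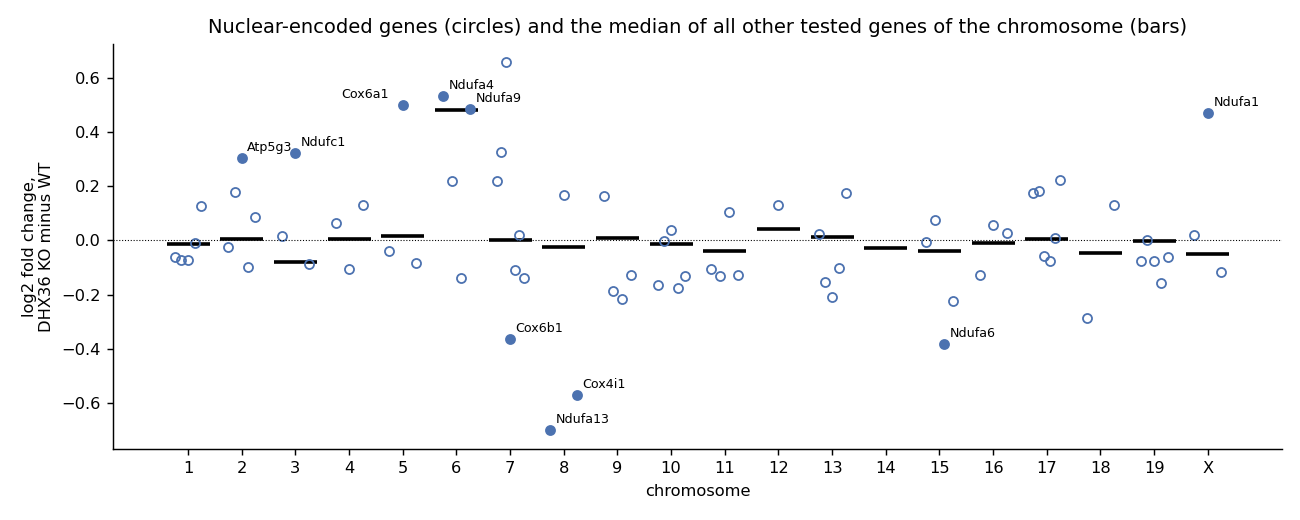
Log2 fold change in DHX36 KO of each tested nuclear member by chromosome, filled and named where the adjusted p is under 0.05, with the median of all other tested genes of the chromosome as a bar. The chromosome 6 bar is at 0.48, near Ndufa4 and Ndufa9, and the next highest bar, of chromosome 12, is at 0.0419.

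Around other members, regional medians shared the direction of the member in some cases and not in others. Genes on chromosome 8 had a median of -0.16 in the double KO. Cox4i1 fell by 0.27 there once this was taken off (adjusted p = 0.021), and by 0.56 in DHX36 KO (adjusted p = 9.2e-05). The 6 tested genes whose starts lie within 500 kb of that of Cox4i1 had medians of -0.21 in DHX36 KO and -0.30 in the double KO. Around Cox6a1 on chromosome 5 (115345642 to 115348981, minus strand), 21 of 25 such genes were positive in DHX36 KO with a median of 0.60, and the median was 0.16 in the double KO. The median of the 5 genes near Atp5a1 was 0.48 in the double KO. Near Ndufc1, Cox6b1, Atp5g3 and Ndufs4, called there at 0.41, -0.55, 0.44 and 0.42, the medians were -0.21, 0.18, 0.03 and -0.02. Near Atp5d and Atp5g1, called at -0.38 and 0.23, they were -0.18 and 0.36. Near Ndufa7, 16 of 36 genes were positive in the double KO and the median was -0.03. Genes there were called in both directions, among them Cd320 at -0.58 (adjusted p = 0.0040) and Daxx at 0.36 (adjusted p = 0.0011). The part of the region in the fall of Ndufa7 was not tested. Near Cox7a2l the median of 4 genes was -0.25 there. Neighbours also shared the direction of some interactions: the median was -0.34 near Cox6a1, with 4 of 25 genes positive, and -1.24 near Cox7a2l, with 1 of 4 positive. Near Ndufa7 and Cox6b2 it was 0.03 and 0.10.

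Promoters of the nuclear members were searched for motifs, since the study concerns G-quadruplex helicases. RefSeq windows of GRCm38.p6, from 250 bases before to 50 after a start, were found for 66 of the 81 by symbol or synonym. A G-quadruplex motif on either strand, as defined above, was held by 13 of the 66 (19.7%), against 20.4% of all 27025 genes with a window. Of the 18 members with a window that were called in the double KO, 5 held it, and of the 9 called in DHX36 KO, 2. Cores of 3 factors known for respiratory chain genes, searched on both strands, were found more often than among all genes: GCATGCGC, of NRF1, in 9 members (13.6% against 3.05%), ACTTCCGG, of the ETS family, in 5 (7.58% against 4.31%) and AAGATGGC, of YY1, in 10 (15.2% against 3.19%). Windows of members were also richer in G and C, with a median of 57.3% against 52.7% over all windows. A match is a description of the sequence, not a site.

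For 3 of the genes with a negative interaction, the 250 bases before the RefSeq start are shown with matches to these 4 motifs in capitals: chr17:33824322-33824571 (plus strand) for Ndufa7, chr17:83514334-83514583 (minus strand) for Cox7a2l and chr5:115348959-115349208 (minus strand) for Cox6a1. Ndufa7 had no match to any of them. Cox7a2l had a G-quadruplex motif that begins in the last bases shown and ends past the RefSeq start, so that its last run of G lies outside the sequence printed. The RefSeq start used for Cox7a2l lies inside the gene span given above and not at the 5′ end of that span. Cox6a1 had an NRF1 core and a G-quadruplex motif on the opposite strand.
Ndufa7: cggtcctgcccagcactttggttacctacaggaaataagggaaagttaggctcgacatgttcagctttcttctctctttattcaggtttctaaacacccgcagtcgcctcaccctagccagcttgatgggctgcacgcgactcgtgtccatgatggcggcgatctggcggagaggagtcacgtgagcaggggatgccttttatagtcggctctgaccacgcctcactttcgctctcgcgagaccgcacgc
Cox7a2l: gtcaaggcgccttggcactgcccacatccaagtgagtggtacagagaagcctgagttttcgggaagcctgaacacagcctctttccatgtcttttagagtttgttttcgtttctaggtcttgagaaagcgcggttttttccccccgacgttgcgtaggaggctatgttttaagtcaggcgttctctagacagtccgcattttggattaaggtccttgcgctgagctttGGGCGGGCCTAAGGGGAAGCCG
Cox6a1: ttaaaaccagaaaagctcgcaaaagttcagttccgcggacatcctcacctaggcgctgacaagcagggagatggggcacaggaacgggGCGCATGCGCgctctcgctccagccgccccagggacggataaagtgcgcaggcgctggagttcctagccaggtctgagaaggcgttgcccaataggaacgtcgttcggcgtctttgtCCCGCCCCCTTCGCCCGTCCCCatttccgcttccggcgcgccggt

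Genes that act around the chain gave a mixed picture, to be read against the 12.8% of all tested genes that rose and 11.6% that fell in DHX36 KO, and the 16.6% and 17.3% in the double KO. The first list held complex II, which has no mitochondrially encoded subunit, and the electron carriers Cycs and Cyc1. Cyc1 is a subunit of complex III that the names used for members did not cover. Of these 6 genes, 1 rose in DHX36 KO and 1 in the double KO. The first was Cycs, which carries electrons to complex IV, at 0.37 (adjusted p = 0.0051). It lies on chromosome 6 and came to -0.11 (adjusted p = 0.44) with the chromosome median taken off. The second was Sdhc, the membrane anchor of complex II, at 0.27 (adjusted p = 0.032). Of 20 complex IV assembly factors, 4 rose and 1 fell in each of these genotypes, and 4 of 20 is near the share of all genes that rose. Cox15, Cox16 and Cox17, which act in heme supply, assembly and copper delivery, rose in both, by 0.35, 0.39 and 0.29 in DHX36 KO and by 0.41, 0.38 and 0.37 in the double KO (adjusted p of 0.0027 to 0.022).

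Of the assembly factors of complexes I and III, 14 and 6 genes, 1 fell in each list in both genotypes without DHX36. For complex I these were different genes. Ecsit fell by 0.49 in DHX36 KO (adjusted p = 0.036), and Ndufaf7, a methyltransferase for complex I, by 0.88 in the double KO (adjusted p = 9.44e-05). Uqcc2, which aids synthesis of cytochrome b, fell by 0.47 in DHX36 KO (adjusted p = 0.011) and by 0.91 in the double KO (adjusted p = 1.02e-05). Uqcc2 was at 76.1 ± 1.68 CPM in wild type, 55.4 ± 8.07 in DHX36 KO and 40.5 ± 8.64 in the double KO (SD, n = 3), while mt-Cytb stood at the levels given above. Uqcc2 was not called in FANCJ KO, but stood at 61.1, 64.5 and 56.4 CPM there, below every wild-type library (74.9 to 78.0). In FANCJ KO 1 of the 14 complex I factors fell, against 0.619% of all tested genes. This was Ndufaf6, by 0.43, with a call near the threshold (adjusted p = 0.046). Of 4 ATP synthase assembly factors, 1 rose and 1 fell in the double KO.

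Of 14 genes of mitochondrial DNA replication and transcription, 1 rose and 2 fell in the double KO. Those that fell were Tefm, the elongation factor of mitochondrial RNA polymerase, by 0.56 (adjusted p = 0.0025), and Ssbp1, which binds single-stranded DNA, by 0.29 (adjusted p = 0.019). Tefm spread widely in wild type, at 57.3, 41.5 and 69.0 CPM, and was at 36.1 to 38.6 in the double KO. It was at 41.8 to 50.5 CPM in DHX36 KO and 39.1 to 43.2 in FANCJ KO. Of 16 genes of mitochondrial RNA processing and stability, 0 rose and 3 fell in the double KO: Hsd17b10, a subunit of RNase P, by 0.54, Rexo2, which degrades short RNAs, by 0.53, and Grsf1, which binds G-rich mitochondrial RNA, by 0.51 (adjusted p of 0.0016, 4.07e-05 and 0.00033). Hsd17b10 and Rexo2 also fell in DHX36 KO, by 0.36 and 0.25. Neither was called in FANCJ KO, but Hsd17b10 stood at 31.5, 31.5 and 25.1 CPM there, below every wild-type library (33.9 to 46.9). It was at 30.6 to 32.6 CPM in DHX36 KO. Rexo2 was at 96.5 to 111 CPM in FANCJ KO, around the 101 to 103 of wild type. Grsf1 was at 100.4 ± 10.96 CPM in wild type and 70.4 ± 6.07 in the double KO. At 3 of 16, the share that fell is close to the 17.3% of all tested genes.

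Of 78 mitochondrial ribosomal proteins, which translate only the 13 mRNAs above, 6 rose and 7 fell in DHX36 KO, 0 changed in FANCJ KO and 2 rose and 13 fell in the double KO. The 13 that fell are close to the 17.3% of all tested genes that did so, and the 2 that rose are below the 16.6%. Their medians were -0.00, -0.08 and -0.05. Of the 6 that rose without DHX36, the 4 on chromosome 6, Mrps25, Mrps35, Mrpl51 and Mrpl35, the last 2 named after their values were seen, were not called once the chromosome median was taken off. Mrps21 fell by 0.74 in the double KO (adjusted p = 1.58e-06). Among 7 regulators of mitochondrial biogenesis, 3 rose in DHX36 KO and 2 in the double KO, against 12.8% and 16.6% of all tested genes. Nrf1, which lies on chromosome 6, rose by 0.33 in the first and came to -0.15 (adjusted p = 0.25) with the chromosome median taken off. Esrra, a nuclear receptor that activates respiratory chain genes, rose from 4.04 ± 0.340 CPM to 7.60 ± 0.223 and 6.89 ± 0.648, and Yy1 from 86.2 ± 0.604 to 107 ± 5.59996 and 115 ± 0.905 (SD, n = 3). Neither was called in FANCJ KO. Esrra was at 5.04 to 5.79 CPM there, above every wild-type library (3.74 to 4.41), and Yy1 at 74.8 to 80.7, below them (85.5 to 86.7). Esrra was low in all libraries, at most 7.84 CPM.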

How the data were processed

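The authors deposited raw counts, whole numbers for each gene in 12 libraries. BWA, GRCm38 and hg38 appear in the submitters' processing notes without version or role. How molecules, strand and reads with several alignments were counted is not given in the sources used here, and members with near-identical pseudogenes or nuclear copies of mitochondrial DNA are uncertain to that extent. The 92 spike-in rows were left out. Gene IDs matched GENCODE M21 (GRCm38) for 32235 of 32285 genes.

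All 12 libraries entered 1 fit by genotype in edgeR 4.0.16 (R 4.3.3), with trimmed-mean scaling, the default filter (12765 genes), quasi-likelihood F tests, two-sided, and Benjamini-Hochberg adjustment over all tested genes at 0.05. The script was tested on simulated data. Shares and their intervals were computed with scipy 1.17.1 and cover counting error only. Complexes were assigned by name, with Ndufa4 and Ndufa4l2 in complex IV.

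Named were all 13 mitochondrial genes, in each comparison with wild type the 10 nuclear members with the largest change among those called with a mean of at least 20 CPM, the isoform sets of complexes IV and V, and members called in the interaction; of the other lists, up to 4 called genes by size. Members and lists were chosen with earlier results of these data known. Alternatives were DESeq2 1.42.0, other scalings and filters, thinning, a replicate block and leaving out each library.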

Additional observations from a re-analysis of the deposited data

Results flagged for a closer look

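For 5 nuclear members the effect of losing DHX36 differed between cells with and without FANCJ, by the interaction term of edgeR's quasi-likelihood fit. The difference was -0.89 on the log2 scale for Ndufa7, whose change was -0.06 with FANCJ present and -0.95 with FANCJ lost (adjusted p = 0.000125). It was -0.69 for Cox7a2l, from 0.22 to -0.46 (adjusted p = 0.00066). Cox6b2 gave -0.70, from 0.32 to -0.37 (adjusted p = 0.024). For Ndufa4 it was -0.56, from 0.53 to -0.03 (adjusted p = 0.0048), and for Cox6a1 -0.47, from 0.50 to 0.03 (adjusted p = 0.013). With each library's chromosome median taken off, the adjusted p was 8.01e-05, 0.00058, 0.016, 0.54 and 0.013 in this order, so Ndufa4, on chromosome 6, was no longer called. The genes within 500 kb had median interactions of -1.24 (4 genes) around Cox7a2l and -0.34 (25 genes) around Cox6a1, against 0.03 around Ndufa7 and 0.10 around Cox6b2.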

How the results depend on the processing

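Of 896 values of 64 gene results under an alternative, 817 kept direction and side of the threshold, 48 lost the call, 17 gained one and 14 turned sign. The 64 were comparisons with wild type, of all mitochondrial genes and of named nuclear members only where called. Uncalled nuclear values and interactions were not among them. All 14 that turned sign were uncalled mitochondrial values, which this choice favours, so they do not set mitochondrial apart from nuclear genes. Without a filter on low counts, called mitochondrial genes came to 5 in DHX36 KO, 2 in FANCJ KO and 8 in the double KO, and genes called in FANCJ KO to 418 from 264, against 159 with the compared genotypes fitted alone. The 1 nuclear call in FANCJ KO became 0 when centred on the chromosome, fitted alone, thinned to equal depth or with a replicate block. Leaving out 1 library gave 1 to 3 mitochondrial calls in DHX36 KO, 110 to 199 genes, 0 to 1 mitochondrial and 0 to 1 nuclear calls in FANCJ KO, and 6 to 13 members between the double KO and DHX36 KO, 6 of them without double KO replicate 1. The log2 ratio difference of FANCJ KO was 0.196 without the most abundant member of each kind and 0.102 without mt-Co1, which was added once the data had been examined. That of the double KO was 0.369 from mean log2 CPM and 0.341 without the most abundant members. The causes were not tested.

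Values that turned sign in DHX36 KO were those of mt-Nd6, -0.0419 when thinned, and, leaving out 1 library, of mt-Atp8 (-0.000549 to 0.219), mt-Nd4l (-0.0718 to 0.339), mt-Nd5 (-0.15 to 0.48) and mt-Nd6 (-0.70 to 0.44). In FANCJ KO they were mt-Co2 (-0.0641 to 0.0819), mt-Atp8 (-0.13 to 0.0897), mt-Nd5 (-0.21 to 0.42) and mt-Nd6 (-0.31 to 0.48). Replicate numbers did not pair the libraries: of 18 same-numbered pairs 3 had a correlation over 0.1, and 4 of 12 libraries correlated best with their own number. Depth limits the precision of Cox7a1, with 8 to 75 counts per library.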
